A study of Mus musculus with 16 samples.

Results

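Ifitm1, Ifitm2, Ifitm3 and Ifitm6 encode mouse interferon-induced transmembrane (IFITM) proteins, and their transcripts are described here in 16 libraries of Ba/F3 cells. The members were chosen by symbol, as 4 of the 25650 genes of the deposited count table, with their raw counts over all 16 libraries in view. Their levels and differences are therefore given as a description, without a test, and tests are given for other genes. All 4 lie within 63088 bp of chromosome 7 on build GRCm39. Ifitm2 (ENSMUSG00000060591) spans chr7:140534750-140535900 on the minus strand, Ifitm1 (ENSMUSG00000025491) chr7:140547134-140549738 on the plus strand, Ifitm3 (ENSMUSG00000025492) chr7:140589499-140590683 on the minus strand and Ifitm6 (ENSMUSG00000059108) chr7:140595612-140597837 on the minus strand.

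Ba/F3 is a mouse pro-B cell line that depends on interleukin-3 for growth. One set of cells is labelled gp130:IL-6R (wild type), that is, with the signalling chain gp130 and the receptor for interleukin-6 (IL-6). The other is labelled ChimP3V3:gp130Box1/2 and is called ChimP3V3 here. Per its title, the series concerns engineered receptors for IL-6 whose output is mostly STAT3 phosphorylation. Cells of each line received medium or 100 ng/ml IL-6, with 4 libraries in each of the 4 groups. The sources used here do not give the length of IL-6 exposure, the presence of interleukin-3 or whether a line is 1 clone.

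IFITM proteins are small membrane proteins of the cell surface and of endosomes. Several are best known for blocking the fusion of enveloped viruses with the cell membrane. Ifitm3 acts mainly in late endosomes, where influenza virus fuses. Ifitm1 and Ifitm2 are close relatives of it, while Ifitm6 is a less studied rodent member whose expression has been described in myeloid cells. In many cell types interferons induce these genes through a complex with IRF9 that binds the interferon-stimulated response element (ISRE), or through gamma-activated sites (GAS). STAT3, which IL-6 activates through gp130, also binds GAS-like sequences.

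The RefSeq promoters of the 4 genes are shown because the text below compares genes that moved unequally across the same cells. Each runs from 250 bases before to 50 bases after the annotated start on build GRCm38.p6, an earlier build than that of the counts, and is printed 5′ to 3′ on the strand of the gene. Capitals mark matches, on either strand, to an ISRE-like motif (GAAA, any 2 bases, GAAA) or a GAS-like motif (TTC, any 3 or 4 bases, GAA).
Ifitm1, chr7:140967826-140968125, plus strand: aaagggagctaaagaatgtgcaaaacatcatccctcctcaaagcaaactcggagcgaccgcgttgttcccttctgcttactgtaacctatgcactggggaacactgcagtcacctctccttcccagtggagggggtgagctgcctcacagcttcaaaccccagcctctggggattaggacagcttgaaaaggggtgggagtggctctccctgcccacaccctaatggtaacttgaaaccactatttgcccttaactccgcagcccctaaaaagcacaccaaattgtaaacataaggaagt
Ifitm2, chr7:140955912-140956211, minus strand: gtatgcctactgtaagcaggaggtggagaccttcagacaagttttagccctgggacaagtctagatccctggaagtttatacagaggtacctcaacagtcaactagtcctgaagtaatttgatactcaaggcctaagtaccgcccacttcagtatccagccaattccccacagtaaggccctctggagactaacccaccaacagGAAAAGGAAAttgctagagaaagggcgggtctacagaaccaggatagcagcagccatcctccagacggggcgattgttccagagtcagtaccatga
Ifitm3, chr7:141010695-141010994, minus strand: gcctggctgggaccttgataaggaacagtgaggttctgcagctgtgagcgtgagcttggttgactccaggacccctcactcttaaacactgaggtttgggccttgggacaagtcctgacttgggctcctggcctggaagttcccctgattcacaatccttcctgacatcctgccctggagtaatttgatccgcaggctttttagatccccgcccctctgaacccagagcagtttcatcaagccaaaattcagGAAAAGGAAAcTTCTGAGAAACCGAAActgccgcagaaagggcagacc
Ifitm6, chr7:141016843-141017142, minus strand: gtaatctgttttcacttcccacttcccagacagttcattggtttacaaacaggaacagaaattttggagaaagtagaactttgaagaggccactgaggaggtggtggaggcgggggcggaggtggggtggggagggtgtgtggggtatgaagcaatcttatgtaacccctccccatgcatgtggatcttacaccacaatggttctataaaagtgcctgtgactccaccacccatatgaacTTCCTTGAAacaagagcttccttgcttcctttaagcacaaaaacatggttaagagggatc

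The 4 windows differed in these letters. The Ifitm3 window held ISRE-like matches at bases 253 to 262 and 270 to 279, just after the start, and between them a GAS-like match at bases 264 to 272 that overlaps the second of them. The Ifitm2 window held 1 ISRE-like match, at bases 205 to 214, with the same 10 letters as the first match of Ifitm3. Ifitm6 held a GAS-like match at bases 241 to 249, and the Ifitm1 window held none. Among the 32851 RefSeq promoters of this length, 3.44% held the ISRE-like motif, 8.30% the GAS-like motif with a spacer of 3 bases and 6.95% that with a spacer of 4 bases. A match is a description of the letters, not evidence of binding. CG pairs numbered 5 in the Ifitm1 window, 4 in Ifitm2, 5 in Ifitm3 and 2 in Ifitm6, against a median of 7 over all promoters.

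The 4 transcripts can be told apart at the 3′ ends that the library kit reads. In the GENCODE M21 transcripts, no stretch of 50 or 100 bases in the last 300 bases of one member occurred in another. Of the 50-base stretches of Ifitm2, 27.5% also occurred in predicted genes (Gm8865, Gm11951, Gm2840, Gm45308 and Gm45432), as did 9.45% of its 100-base stretches (in Gm8865), so that the Ifitm2 counts are less certain than the others. The coding sequences of Ifitm1, Ifitm2 and Ifitm3 were 79.3% to 81.4% identical in pairs, and that of Ifitm6 was 61.9% to 66.4% identical to them. The predicted gene Gm45717, which overlaps Ifitm2 on the same strand, had 0 counts in all libraries.

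Total counts ranged from 1275112 to 1650348 per library, and 10968 to 11539 genes had a count. Levels are given as CPM, counts divided by the library total after scaling with TMM factors. Where a library had 0 counts of a gene, its level could be as high as 1.80 to 2.41 CPM, for counting error only. The share of counts from 13 mitochondrial genes moved with IL-6. In gp130:IL-6R libraries it was 1.14% to 1.19% in medium and 1.43% to 1.62% with IL-6, and in ChimP3V3 libraries 1.38% to 1.45% and 1.66% to 1.75%. Of 12 pro-B markers, Rag1, Rag2 and Dntt were at 0 in every library, and the summed level of the list was 12.6 to 31.5 CPM, so the defining markers of the labelled cell type were largely absent. Of 12 T and NK markers 6 were at 0 throughout (Cd3e, Cd4, Trac, Ncr1, Klrb1c and Gzma), with sums of 9.11 to 15.1 CPM in gp130:IL-6R and 0.697 to 5.27 CPM in ChimP3V3 libraries. Of 10 macrophage and dendritic markers Itgax, Mrc1, Cd14, Marco and Flt3 were at 0 throughout, with sums of 17.7 to 50.2 and 5.60 to 40.9 CPM, and 10 fibroblast and epithelial markers summed to at most 3.35 CPM. Replicates of a group differed little beyond counting noise (chi-square per degree of freedom 0.964 to 1.17 over 24 pairs), and 9 of the 24 pairs did not differ by this test at all, while other pairs of their groups did. Nothing in the labels says that replicates are separate cultures, so SD, SE and p-values measure a spread that may be technical, and each group is given with its 4 libraries.

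Whether in medium or under IL-6, ChimP3V3 cells had lower levels of all 4 IFITM genes than gp130:IL-6R cells, and in no case did libraries of the 2 lines overlap. Among the 9540 genes that passed the filter on low counts, 29.7% were lower without overlap in medium and 27.7% under IL-6. Since the members were chosen with these counts known, nothing is read from their number. Of all counts in gp130:IL-6R libraries they took together 0.245% ± 0.00575 (SD, n = 4) without IL-6 and 0.243% ± 0.00487 with it. In ChimP3V3 libraries they took 0.0495% ± 0.00202 and 0.0368% ± 0.00248. In these bulk libraries fewer expressing cells and less RNA per cell cannot be told apart.

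Ifitm1 showed 1207, 1208, 1292 and 1235 CPM in the 4 gp130:IL-6R libraries in medium, from 1812 to 2009 counts, and 1319, 1429.8, 1329.7 and 1333 CPM under IL-6. In ChimP3V3 cells it showed 315, 322, 321 and 312 CPM in medium, from 453 to 503 counts, and 259.5, 249, 276 and 244 CPM under IL-6. The lowest gp130:IL-6R library thus lay far above the highest ChimP3V3 library. The difference was 3.88-fold in medium (log2 -1.96, SE 0.0389) and 5.26-fold under IL-6 (log2 -2.39, SE 0.0415).

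Ifitm3, the endosomal member, differed more. Its levels in gp130:IL-6R cells were 895, 881, 964 and 913 CPM in medium and 797, 815, 790.2 and 803 CPM under IL-6, from 1135 to 1466 counts. In ChimP3V3 cells they were 79.9, 103, 93.0 and 86.2 CPM in medium and 53.5, 54.3, 67.5 and 50.6 CPM under IL-6, from 63 to 160 counts. Ifitm3 was thus 10.1-fold lower in ChimP3V3 cells in medium (log2 -3.33, SE 0.0521) and 14.2-fold lower under IL-6 (log2 -3.83, SE 0.0623). Among all 9540 genes, ordered from the lowest log2 difference in medium, Ifitm3 stood at place 204, Ifitm1 at 306 and Ifitm2 at 384.

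Ifitm2 had the smallest difference of the 4 on the log2 scale. Its levels in gp130:IL-6R cells were 248, 215, 232 and 249.7 CPM in medium and 235, 241, 241 and 227 CPM under IL-6. In ChimP3V3 cells they were 79.9, 84.0, 75.1 and 66.5 CPM in medium and 70.8, 59.5, 60.5 and 53.1 CPM under IL-6, from 66 to 131 counts. The lines differed 3.08-fold in medium (log2 -1.62, SE 0.0697) and 3.85-fold under IL-6 (log2 -1.94, SE 0.077).

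Ifitm6 had counts in the 8 gp130:IL-6R libraries alone. It had 96, 98, 91 and 114 counts there in medium (61.1, 58.9, 64.9 and 74.9 CPM) and 118, 108, 121 and 117 counts under IL-6 (80.3, 77.6, 83.8 and 73.9 CPM). All 8 ChimP3V3 libraries had 0 counts, for which the highest level still allowed is 0.506 CPM in the medium group as a whole and 0.570 CPM in the IL-6 group. Against these limits, of 3 counts over a group, Ifitm6 was at least 128-fold lower in medium and at least 138-fold lower under IL-6. The gene passed the filter on low counts only through its gp130:IL-6R libraries, and it could not be tested for an IL-6 response in ChimP3V3 cells.

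**Figure D1:**
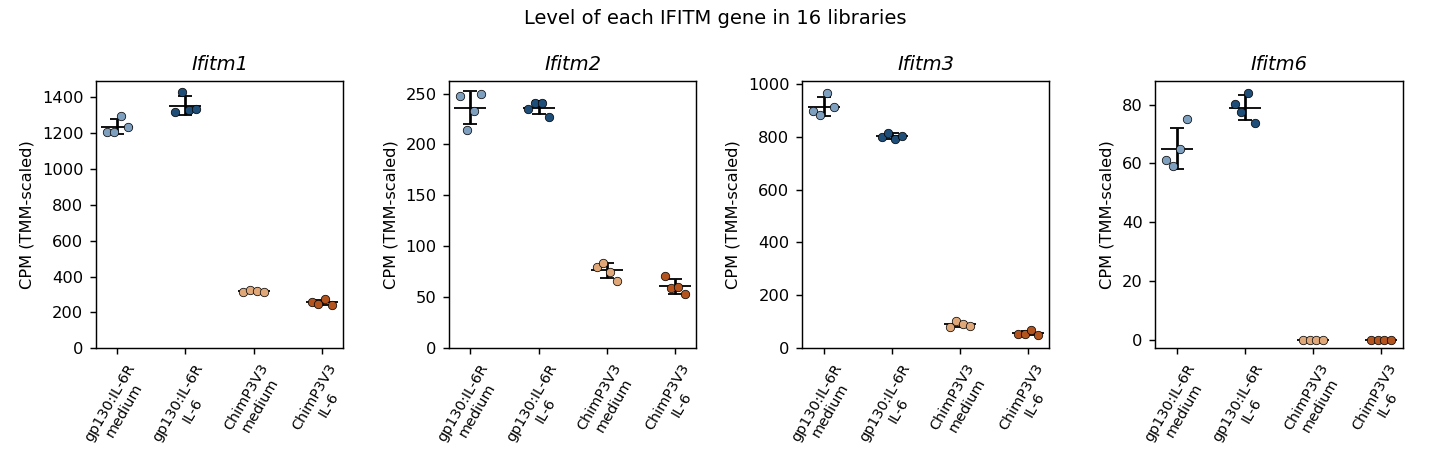
Level of each IFITM gene in CPM (vertical axes, linear and each on its own scale) in the 16 libraries by group. Points are libraries, and the bars show the mean ± SD of 4. All gp130:IL-6R points lie above all ChimP3V3 points, and the ChimP3V3 points of Ifitm6 lie at 0.

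The remaining family genes of the table were nearly silent. Ifitm5, the bone-restricted member, lies next to Ifitm2 at chr7:140528871-140530204 and had 17 counts in 9 libraries, 11 of them in gp130:IL-6R and 6 in ChimP3V3 cells. Ifitm7, on chromosome 16, had 7 counts, all in ChimP3V3 libraries, and Ifitm10, at chr7:141879574-141927490, had 1. None of them passed the filter.

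Because the 4 genes differed between the lines by unequal factors, the composition of the IFITM counts also differed. Ifitm3 made up 37.3% ± 0.349 (SD, n = 4) of the summed IFITM counts in gp130:IL-6R cells in medium, 32.5% ± 0.518 under IL-6, 18.6% ± 1.38 in ChimP3V3 cells in medium and 15.0% ± 1.18 under IL-6. The share of Ifitm1 ran the other way, at 50.4% ± 0.543, 54.8% ± 0.698, 65.6% ± 1.63 and 68.7% ± 1.06 in the same order. Ifitm2 held 9.64% ± 0.634 and 9.56% ± 0.248 in gp130:IL-6R cells and 15.7% ± 1.15 and 16.3% ± 1.58 in ChimP3V3 cells, and Ifitm6 held 2.65% ± 0.254 and 3.20% ± 0.201 in gp130:IL-6R cells. These shares do not depend on how libraries are scaled.

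**Figure D2:**
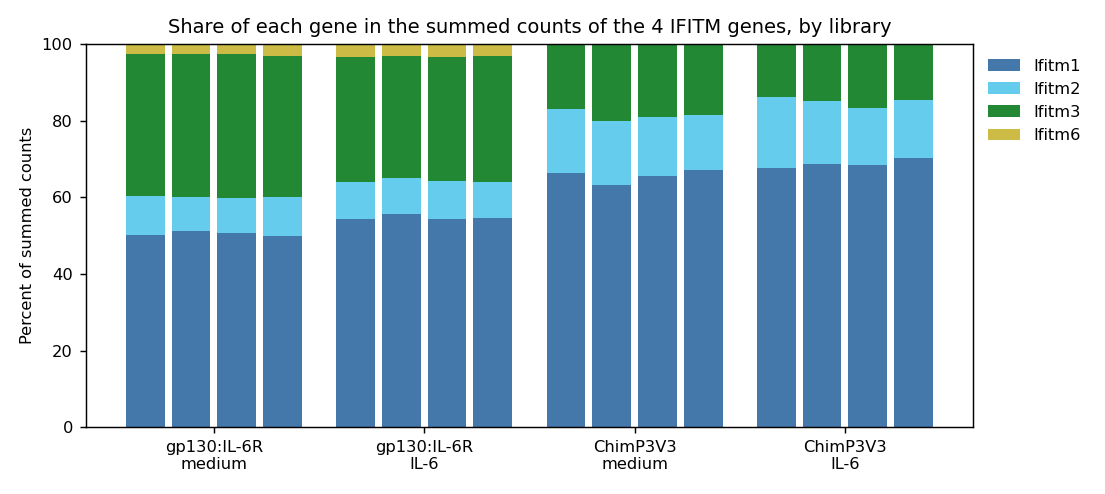
Share of each IFITM gene in the summed IFITM counts (percent, vertical axis) of each library, 4 bars per group in the order of the replicate numbers. The Ifitm3 part shrinks from 37.3% in the mean of gp130:IL-6R cells in medium to 15.0% in ChimP3V3 cells under IL-6, and the Ifitm6 part is missing from all ChimP3V3 bars.

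The ratio of Ifitm3 to Ifitm1 also differed between the groups. In counts per 100 counts of Ifitm1, Ifitm3 had 73.0 to 74.6 in gp130:IL-6R cells in medium, 57.0 to 60.5 under IL-6, 25.4 to 31.8 in ChimP3V3 cells in medium and 20.6 to 24.4 under IL-6. No 2 groups overlapped in this ratio, though the ChimP3V3 groups nearly met (25.4 in medium, 24.4 under IL-6). How often ratios of other genes separate the groups was not counted, so nothing is read from this. Ifitm2 per 100 counts of Ifitm1 was 17.8 to 20.5 in medium and 16.8 to 18.1 with IL-6 for gp130:IL-6R cells, and 21.3 to 26.0 and 21.8 to 27.3 in ChimP3V3 cells, so that medium and IL-6 overlapped in both lines.

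Levels of different members were set side by side per kilobase of transcript, although reads of this kit come from the 3′ end. In gp130:IL-6R cells in medium, Ifitm1 stood at 1400.6 or 2206 CPM per kb by its longest or shortest coding transcript, Ifitm3 at 1347, Ifitm2 at 360.4 and Ifitm6 at 79.9 to 98.0 CPM per kb. In ChimP3V3 cells in medium the order of the means was Ifitm1 (360.1 or 567 CPM per kb), Ifitm3 (133) and Ifitm2 (117). Under IL-6 in ChimP3V3 cells the means were 93.1 CPM per kb for Ifitm2 and 83.3 for Ifitm3. In both ChimP3V3 groups the order of these 2 genes differed between libraries, so they did not differ beyond their spread. The deposited TPM values are constant multiples of the counts, with no term for length, and give the same shares as the counts.

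IL-6 was set against medium within each line. The members went separate ways in gp130:IL-6R cells. Ifitm1 was 1.10-fold higher under IL-6 (log2 0.13, SE 0.0298) and Ifitm3 1.14-fold lower (log2 -0.19, SE 0.0323), each with no overlap between the 4 and 4 libraries given above. Over all tested genes, 22.7% were higher and 21.1% lower without overlap. Ifitm2 differed by -0.00 on the log2 scale (SE 0.0521), with overlapping groups. Ifitm6 was 1.22-fold higher in the mean (log2 0.28, SE 0.0948), with the lowest IL-6 library (73.9 CPM) just under the highest medium library (74.9 CPM).

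In ChimP3V3 cells the 3 detected members were all lower in the mean under IL-6. Ifitm3 was 1.60-fold lower (log2 -0.68, SE 0.104) and Ifitm1 1.24-fold lower (log2 -0.30, SE 0.0548), each without overlap, while 11.5% of all tested genes were lower and 15.9% higher without overlap. Ifitm2 was 1.25-fold lower (log2 -0.32, SE 0.101), with the highest IL-6 library (70.8 CPM) above the lowest medium library (66.5 CPM). The mean total count was also lower under IL-6 in this line, 1339405 ± 52853 against 1449201 ± 47585 (SD, n = 4), and the mitochondrial share higher; the part of either in these differences was not tested.

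Set beside each other, the responses of Ifitm1 pointed in opposite directions: higher in every IL-6 library of gp130:IL-6R cells than in any of its medium libraries, and lower in every IL-6 library of ChimP3V3 cells. Such a pattern was met in 76 of 9540 genes (0.797%). The response in ChimP3V3 cells minus that in gp130:IL-6R cells was -0.44 (SE 0.0623) for Ifitm1, -0.32 (SE 0.114) for Ifitm2 and -0.50 (SE 0.109) for Ifitm3 on the log2 scale. These 3 differences are descriptions, like the levels they come from. Leaving out any 1 library kept the sign of each of them.

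**Figure D3:**
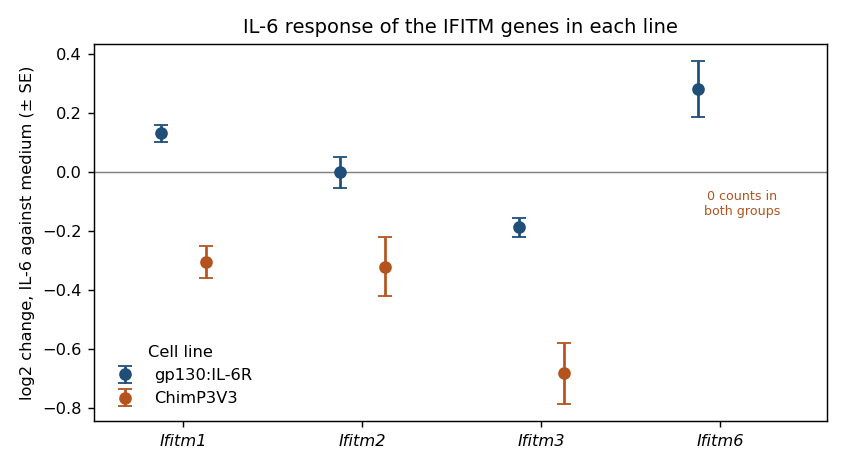
log2 change under IL-6 against medium (vertical axis, ± SE of the model, 4 against 4 libraries) for each IFITM gene in gp130:IL-6R (blue) and ChimP3V3 (orange) cells. Points at or above -0.19 are those of gp130:IL-6R cells, the 3 ChimP3V3 points lie between -0.30 and -0.68, and Ifitm6 has none there.

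Genes within 200 kb of the cluster were read to see how far along the chromosome the difference between the lines extended. Of 27 such genes, 7 had no count and 13 were tested. Between the lines in medium, 6 of the 13 were higher in ChimP3V3 cells and 4 lower (edgeR quasi-likelihood test, Benjamini-Hochberg adjusted p under 0.05), against 31.7% higher and 33.4% lower over all tested genes. Under IL-6 it was 7 and 4, against 31.2% and 31.6%.

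B4galnt4, a glycosyltransferase gene 43.2 kb beyond Ifitm6 (chr7:140641017-140652313), differed in the same direction as the cluster. It showed 28.4 ± 0.463 CPM (SD, n = 4) in gp130:IL-6R cells in medium, 16.4 ± 2.76 under IL-6, and 1.53 ± 0.375 and 1.34 ± 0.782 in ChimP3V3 cells. The difference in medium was -4.15 on the log2 scale (SE 0.297) and that under IL-6 -3.53. B4galnt4 had at most 3 counts in a ChimP3V3 library and passed the filter on low counts only through gp130:IL-6R libraries. Its tests between the lines and its place among the lower neighbours therefore support nothing. Scgb1c1, a secretoglobin gene 108 kb on the other side, had 2.64 ± 1.26 and 10.2 ± 2.32 CPM in gp130:IL-6R cells and 0 counts in all ChimP3V3 libraries. It was at least 5.21-fold lower there in medium and at least 17.9-fold lower under IL-6. Under IL-6 in gp130:IL-6R cells its log2 difference from medium was 1.94 (SE 0.391). Scgb1c1 had 2 to 6 counts in the gp130:IL-6R libraries in medium and 11 to 19 under IL-6, and it passed the filter on low counts only through the latter, so its tests and its place in the counts of called neighbours support nothing.

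Below Ifitm2, the nearest tested genes went in different directions. Pgghg, a glucosidase gene 7.17 kb below Ifitm2, was higher in ChimP3V3 cells (log2 0.61 in medium, edgeR adjusted p = 0.00971; log2 1.17 under IL-6), a call lost in medium without gp130:IL-6R medium replicate 1 (edgeR adjusted p = 0.0632). Psmd13, a proteasome subunit gene 56.2 kb below, was lower (log2 -0.29 in medium, edgeR adjusted p = 1.11e-05; log2 -0.15 under IL-6, a call lost with DESeq2, adjusted p = 0.0700, and without IL-6 replicate 4 of gp130:IL-6R or 2 of ChimP3V3 cells, 0.0958 and 0.0980). Farther out on this side, Bet1l (log2 0.35) was higher in ChimP3V3 cells in medium. On the side of Ifitm6, beyond B4galnt4, so were Hras (1.24), Sigirr (1.85), Lrrc56 (1.91) and Rassf7 (1.04). Sigirr and Lrrc56 had at most 7 and 4 counts in a gp130:IL-6R library and passed the filter only through ChimP3V3 libraries. Their tests between the lines and their places among the higher neighbours therefore support nothing. Ptdss2 (log2 0.03), Ric8a (-0.03) and Rnh1 (0.12) did not pass the test in medium. The call of Sirt3 (log2 -1.02, edgeR adjusted p = 0.0451) was lost with DESeq2 (adjusted p = 0.0609), with limma (0.0955) and without any 1 of 10 libraries, among them ChimP3V3 medium replicate 1, 2 or 3 (0.0511 to 0.156). Sirt3 had 3 to 11 counts in a ChimP3V3 medium library and 11 to 15 in a gp130:IL-6R one, near the filter's minimum of 10. Its test and its place among the lower neighbours therefore support nothing. Of the lower neighbours in medium, Psmd13 alone had no such limit from low counts. Bet1l, Ric8a, Sirt3 and Psmd13 overlap one another in a chain on opposite strands, and the sources used here do not give the strand setting of the counting, so their counts are uncertain.

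**Figure D4:**
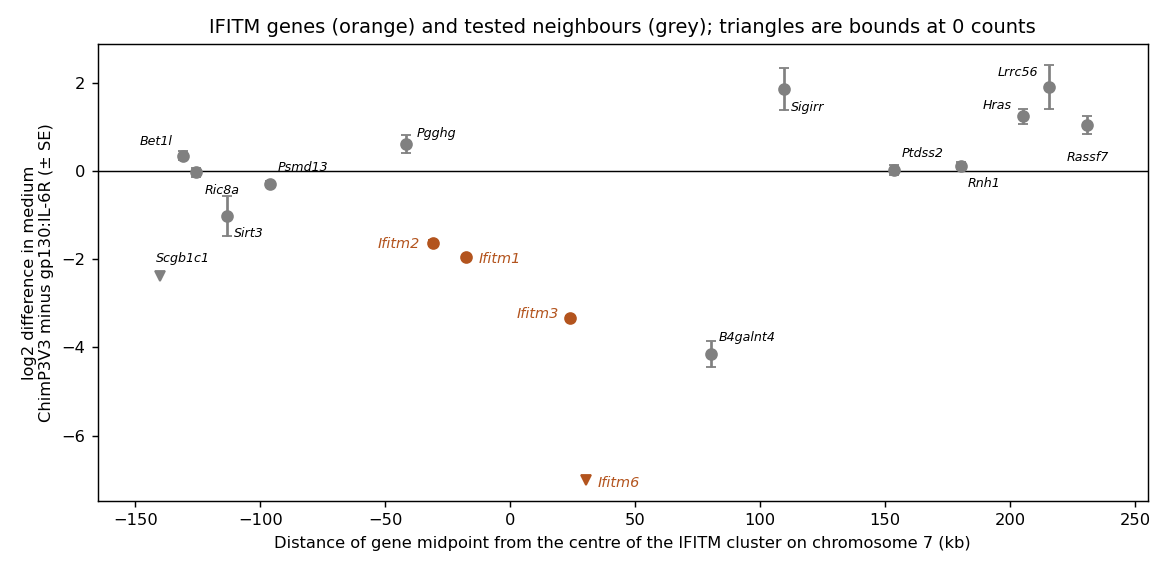
log2 difference between the lines in medium, ChimP3V3 minus gp130:IL-6R (vertical axis, ± SE), against the distance of each gene's midpoint from the centre of the IFITM cluster in kb, for the IFITM genes (orange) and 13 tested neighbours (grey). Triangles are limits for genes with 0 counts in ChimP3V3 cells; B4galnt4 at -4.15 lies beside the cluster, and Pgghg at 0.61 is higher in ChimP3V3 cells.

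The IL-6 responses of the neighbours were counted in the same way. Among the 13, in gp130:IL-6R cells, 4 rose (Scgb1c1, Bet1l, Rnh1 and Rassf7) and 2 fell (Psmd13 and B4galnt4), against 25.7% and 24.3% of all tested genes. In ChimP3V3 cells 1 rose (Bet1l, log2 0.42) and 1 fell (Psmd13, log2 -0.22), against 16.2% and 11.4%; 2 rose without gp130:IL-6R IL-6 replicate 3, ChimP3V3 medium replicate 1 or ChimP3V3 IL-6 replicate 1 or 3. The difference of the responses was called for Rassf7 (log2 -1.42), Rnh1 (-0.57) and Ric8a (0.47), against 12.4% higher and 11.5% lower over all tested genes. The call of Ric8a (edgeR adjusted p = 0.0201) was lost with DESeq2 (adjusted p = 0.0643) and without gp130:IL-6R medium replicate 4, IL-6 replicate 3 or ChimP3V3 IL-6 replicate 3 or 4 (0.0531 to 0.0949).

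The receptors and transcription factors that act upstream of IFITM genes in interferon signalling were read from a list of 19 genes, of which 15 were tested. Several interferon receptor chains were lower in ChimP3V3 cells in medium. Ifnar2, a chain of the type I interferon receptor, had 224 ± 13.0 CPM in gp130:IL-6R and 55.9 ± 6.31 CPM in ChimP3V3 cells (SD, n = 4, 4.00-fold lower, log2 SE 0.0821, edgeR adjusted p = 6.85e-24). Ifngr1 (log2 -0.88) and Ifngr2 (-0.73), the chains of the interferon-gamma receptor, and Irf9, the DNA-binding part of the complex that acts at the ISRE (log2 -1.01, SE 0.161, edgeR adjusted p = 6.11e-07), were lower too. So were Irf1 (log2 -0.51), Irf2 (-0.37) and Stat3 (-0.38). Jak1 (log2 0.35), Tyk2 (1.05) and Stat2 (0.58) were higher in ChimP3V3 cells.

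In all, 8 of the 15 were lower and 3 higher in medium, against 33.4% and 31.7% of all tested genes, with a median log2 difference of -0.37 beside -0.00 over all tested genes. The eighth, Ifnar1 (log2 -0.52, edgeR adjusted p = 0.0498), lost its call under 7 of the 8 other fits (adjusted p 0.0505 to 0.123; it held with limma) and without any 1 of 12 libraries, all gp130:IL-6R medium libraries among them (0.0515 to 0.122). Under IL-6, against 31.6% lower and 31.2% higher over all tested genes, 6 were lower (Ifnar1, Ifnar2, Ifngr2, Stat3, Irf9 and Irf1) and 5 higher (Jak1, Jak2, Tyk2, Stat2 and Irf5). The call of Jak2 (edgeR adjusted p = 0.0366) was lost with DESeq2 (adjusted p = 0.0808), limma (0.0648), no filter (0.0560), the stricter filter (0.0691) and without IL-6 replicate 1, 2 or 4 of gp130:IL-6R or 1, 2 or 3 of ChimP3V3 cells (0.0563 to 0.209). That of Irf1 (edgeR adjusted p = 0.0341) was lost with DESeq2 (adjusted p = 0.0749) and on leaving out IL-6 replicate 2 or 3 of gp130:IL-6R or 4 of ChimP3V3 cells (0.0765 to 0.175).

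Of the 15 genes, 4 rose and 1 fell under IL-6 in gp130:IL-6R cells, against 25.7% and 24.3% of all tested genes, so that the number that rose was near the background. In ChimP3V3 cells 7 rose, against 16.2% of all. In gp130:IL-6R cells Ifnar2 (log2 0.74), Ifngr2 (1.12), Jak1 (0.34) and Irf9 (0.84) rose and Ifngr1 fell (-0.44, SE 0.0801, edgeR adjusted p = 1.50e-05). In ChimP3V3 cells none fell, against 11.4% of all tested genes, and those that rose were Ifnar2 (log2 0.49), Ifngr1 (0.43), Ifngr2 (0.68), Jak1 (0.24), Irf9 (0.53), Irf1 (0.29) and Irf5 (0.98). None was lower at an unadjusted p under 0.05 either, nor with DESeq2 or limma. The calls of Ifngr2, Irf1 and Irf9 there (edgeR adjusted p = 0.0231, 0.0195 and 0.0245) were lost with DESeq2 (adjusted p = 0.0739, 0.0843 and 0.0735), and those of Irf1 and Irf9 also with no filter (0.0640 and 0.0543). Each was also lost when 1 of several ChimP3V3 libraries was left out (0.0553 to 0.180): medium replicate 1, 2 or 3 or IL-6 replicate 2 or 4 for Ifngr2, medium replicate 3 or IL-6 replicate 1, 2 or 3 for Irf1, and medium replicate 2 or 3 or IL-6 replicate 3 or 4 for Irf9. The responses differed for Ifngr1 (log2 0.86, SE 0.126, edgeR adjusted p = 9.50e-07) and for Irf5 (1.37, SE 0.407, edgeR adjusted p = 0.00983), the latter not with DESeq2 (adjusted p = 0.0549). Irf5 had few counts, near the filter's minimum of 10. They were 6 to 13 in a ChimP3V3 medium library and 13 to 20 under IL-6, and 10 to 15 and 8 to 11 in gp130:IL-6R cells. None of the differences was negative at an adjusted p under 0.05 (edgeR; 0 with DESeq2 and limma, 1 at an unadjusted p under 0.05), but 2 were without ChimP3V3 IL-6 replicate 3.

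Other interferon-stimulated genes were found on both sides of 0 between the lines. Of 68 genes of a list of effectors 40 were tested, and in medium 15 were higher and 10 lower in ChimP3V3 cells, against 31.7% and 33.4% of all tested genes, with a median log2 difference of 0.22 beside -0.00 over all tested genes. The guanylate-binding protein gene Gbp7 was higher (11.1 ± 2.36 against 49.2 ± 5.95 CPM; log2 2.15, SE 0.161, edgeR adjusted p = 2.89e-15), as were Slfn5 (log2 1.49), Herc6 (0.81) and Tap2 (0.45). Lgals3bp, a secreted glycoprotein gene, was far lower, at 83.6 ± 9.06 against 1.01 ± 1.18 CPM (log2 -6.24, SE 0.262). It had at most 4 counts in a ChimP3V3 library and passed the filter on low counts only through gp130:IL-6R libraries. Its tests between the lines and its place among the lower effector genes therefore support nothing. The same holds for Ifi47 (2 to 7 counts in a ChimP3V3 medium library, 5 to 9 under IL-6) and Ifi35 (4 to 9 in medium). Both counted among the lower genes and passed the filter only through gp130:IL-6R libraries. The immunoproteasome genes Psmb8 (log2 -1.12) and Psmb9 (-0.79) and Samhd1, which depletes nucleotides (-0.57), were lower too. Under IL-6, 12 were higher and 13 lower, near the 31.2% and 31.6% of all tested genes, with Tap2, Slfn5, Apobec3 and Gbp7 the highest ranked by p among the former and Lgals3bp, Psmb8, Trim25 and Samhd1 among the latter. Irgm2, also called lower under IL-6, had at most 10 counts in a ChimP3V3 library there. Xaf1, called higher, had at most 9 in a gp130:IL-6R library there. Ifit2, called higher in medium, had 7 to 10 counts in a gp130:IL-6R medium library.

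**Figure D5:**
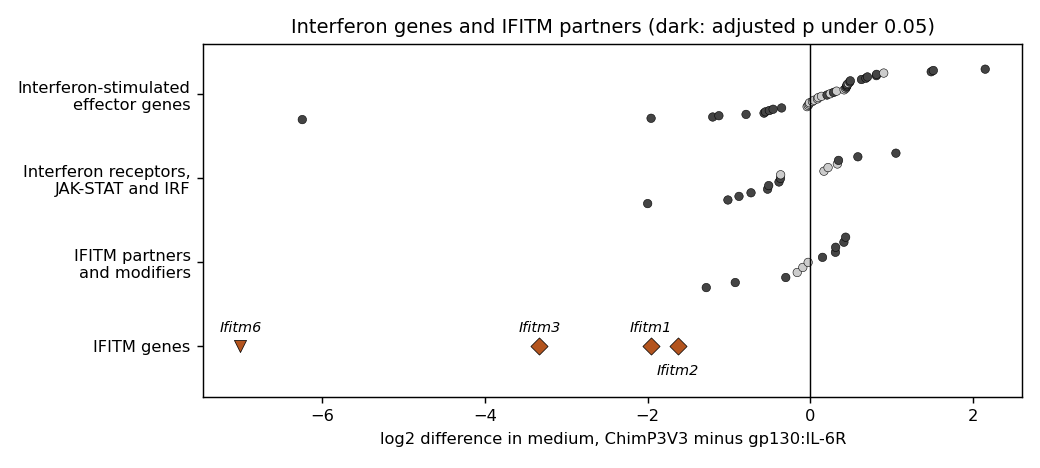
log2 difference between the lines in medium, ChimP3V3 minus gp130:IL-6R (horizontal axis), for the tested genes of 3 lists (circles, dark where the edgeR adjusted p is under 0.05) and for the IFITM genes (orange). The Ifitm6 triangle is a limit; the effector genes lie on both sides of 0, from -6.24 for Lgals3bp to 2.15 for Gbp7.

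The effector list was then read under IL-6 within each line. Of its 40 genes, 14 rose and 4 fell in gp130:IL-6R cells, against 25.7% and 24.3% of all tested genes. The immunity-related GTPase gene Irgm1 rose from 18.4 ± 3.83 to 53.6 ± 8.48 CPM (SD, n = 4, log2 1.52, SE 0.161, edgeR adjusted p = 1.46e-10), and Trim25, which activates RIG-I, by 1.00 (SE 0.0753, edgeR adjusted p = 1.19e-14) on the log2 scale. Ly6e (log2 0.32) and Ifi27 (0.58) rose as well, while Psmb10 (-0.80), Slfn8 (-0.56), Apobec3 (-0.44) and Eif2ak2 (-0.38) fell. The call of Apobec3 (edgeR adjusted p = 0.0209) was lost without medium replicate 2 or 4 or IL-6 replicate 1 or 3 of this line (0.0679 to 0.111). That of Eif2ak2 (edgeR adjusted p = 0.0232) was lost with DESeq2 (adjusted p = 0.0619) and when medium replicate 2 or 3 or IL-6 replicate 1 was left out (0.0558 to 0.135), so that 2 genes fell, not 4, without medium replicate 2 or IL-6 replicate 1.

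In ChimP3V3 cells, where 16.2% of all tested genes rose and 11.4% fell, 3 of 40 rose, Tap2 (log2 0.41), Ly6e (0.19) and Psmb8 (0.32), and 5 fell, Psmb10 (-0.80), Samhd1 (-0.35), Slfn8 (-0.50), Ifit2 (-0.70) and Herc6 (-0.35). The calls of Ifit2 and Herc6 (edgeR adjusted p = 0.0264 for each) were lost with DESeq2 (adjusted p = 0.102 and 0.0898) and without ChimP3V3 medium replicate 1 or IL-6 replicate 4 (0.0592 to 0.0976), that of Ifit2 also without medium replicate 2 (0.0829). The number that rose was 6 without ChimP3V3 medium replicate 2 and 5 without medium replicate 3. The responses differed for 11 of 40, against 12.4% more positive and 11.5% more negative over all tested genes. Of the 11, 8 were more negative in ChimP3V3 cells, among them Irgm1 (log2 -1.39), Gbp7 (-1.28), Tor3a (-1.14) and Trim25 (-0.81), and 3 more positive, Tap2 (0.51), Psmb8 (0.38) and Apobec3 (0.58). The call of Apobec3 for this difference (edgeR adjusted p = 0.0362) was lost with DESeq2 (adjusted p = 0.0883), limma (0.0806) and a stricter filter (0.0544). It was also lost without gp130:IL-6R medium replicate 2 or 4 or IL-6 replicate 1 or 3, or ChimP3V3 medium replicate 1 or 4 or IL-6 replicate 1, 2 or 3 (0.0518 to 0.134).

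A list of 14 genes whose products modify IFITM proteins or bind them gave 11 tested genes. Zdhhc20 encodes an enzyme that attaches palmitate to Ifitm3, which anchors it in membranes, and was lower in ChimP3V3 cells in medium, at 135 ± 8.95 against 70.7 ± 1.06 CPM (SD, n = 4, log2 -0.92, SE 0.0760, edgeR adjusted p = 5.48e-14). Ap2m1, the AP-2 subunit that binds the endocytosis signal of IFITM3, was slightly lower (log2 -0.30, edgeR adjusted p = 6.43e-05). The tetraspanin gene Cd81, whose product associates with IFITM1, was lower at few counts (log2 -1.28). Cd81 had 5 to 10 counts in ChimP3V3 medium libraries and 1 to 8 under IL-6. It passed the filter on low counts only through gp130:IL-6R libraries, so its tests between the lines and its place among the lower partner genes support nothing. Higher in ChimP3V3 cells were Ap2a2 (log2 0.31), Ap2s1 (0.41), Vcp (0.15), the lysine methyltransferase gene Setd7 (0.31) and Zmpste24 (0.43), a protease gene whose product acts together with IFITM proteins. Nedd4, the ubiquitin ligase that marks Ifitm3 for degradation, was at 569 ± 13.2 and 558 ± 20.2 CPM in medium (log2 -0.03, SE 0.0373, edgeR adjusted p = 0.545). Higher and lower genes thus numbered 5 and 3 of 11 in medium, against 31.7% and 33.4% of all tested genes. Under IL-6, 4 were higher (Ap2s1, Vcp, Setd7 and Zmpste24) and 3 lower (Zdhhc20, Ap2m1 and Cd81), or 5 lower without ChimP3V3 IL-6 replicate 4.

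Within the lines, 2 of the 11 partner genes rose and 2 fell in gp130:IL-6R cells, against 25.7% and 24.3% of all tested genes, and 1 rose and 1 fell in ChimP3V3 cells, against 16.2% and 11.4%. Under IL-6, in gp130:IL-6R cells, Zdhhc20 (log2 0.35) and Cd81 (0.63) rose and Ap2s1 (-0.42) and Vcp (-0.29) fell. In ChimP3V3 cells Vapa rose (log2 0.18) and Vcp fell (-0.12). The responses differed for Vcp (log2 0.17) and Setd7 (0.34). The call of Cd81 (edgeR adjusted p = 0.0261) was lost with DESeq2 (adjusted p = 0.0841), limma (0.109) and without gp130:IL-6R medium replicate 2 or 3 or IL-6 replicate 1 or 4 (0.0558 to 0.113). That of Ap2s1 (edgeR adjusted p = 0.0193) was lost without gp130:IL-6R medium or IL-6 replicate 4 (0.0853 and 0.0915) and that of Vapa without ChimP3V3 IL-6 replicate 1 (0.0669). Without ChimP3V3 IL-6 replicate 1, 3 of the partner genes fell in that line. The difference of Vcp (edgeR adjusted p = 0.0136) was lost with DESeq2 (adjusted p = 0.0766), no filter (0.138), the stricter filter (0.0697) and merged replicates (0.0510) and on leaving out IL-6 replicate 1 or 4 of gp130:IL-6R or 2, 3 or 4 of ChimP3V3 cells (0.0575 to 0.139). That of Setd7 (edgeR adjusted p = 0.0447) was lost with DESeq2 (adjusted p = 0.154), RLE factors (0.0534), no filter (0.124), the stricter filter (0.0847) and without any 1 of 9 libraries (0.0637 to 0.225).

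Genes whose pattern over the 16 libraries was most like that of each member were ranked by Pearson's r of log2(CPM + 1) among 9199 genes with a mean of at least 5 CPM. The libraries fall into 2 lines, so r mainly records the contrast between them, and it is given as a description. For Ifitm1 the 4 most alike were Klk8, Mbp, F11r and Rbpms2 (r 0.994 to 0.995), and for Ifitm2 they were Esyt1 (r 0.996), Mbp, Klk8 and Psme2. For Ifitm3 they were Psme2, an activator subunit of the proteasome, Mbp, Krtcap2 and Hmga1b (0.991 to 0.994). Psme2 had 197 ± 11.4 and 181 ± 16.5 CPM in gp130:IL-6R cells and 52.3 ± 4.53 and 42.8 ± 2.57 CPM in ChimP3V3 cells, thus lower in the mean under IL-6 in both lines, as Ifitm3 was. The ranking over these same libraries favours genes that move alike, so nothing is read from this likeness.

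For Ifitm6 the 4 most alike were Il18rap, Rbpms2, Slfn4 and Aqp9 (r 0.999 to 1.00), of which none had a count in any ChimP3V3 library. The ranking favours such genes, because Ifitm6 itself had 0 counts there. Il18rap, a chain of the interleukin-18 receptor, had 106 ± 10.8 CPM in medium and 133 ± 6.58 CPM under IL-6 in gp130:IL-6R cells, and Slfn4 83.1 ± 3.14 and 112 ± 7.93 CPM. The lowest r belonged to Hbb-bs and Csgalnact1 for Ifitm1 (both -0.998), to Csgalnact1 and Abcb4 for Ifitm2 (both -0.994) and for Ifitm3 (-0.997 and -0.998), and to Elf4 and Plxdc2 for Ifitm6 (both -0.999). All 5 of these had 0 counts in the gp130:IL-6R libraries. Between 320 and 405 genes had r above 0.95 with a member. Hmga1b and Hbb-bs have near-identical copies, and their counts are uncertain.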

How the data were processed

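RNA of 16 Ba/F3 libraries was measured with a kit that reads the 3′ ends of polyadenylated RNA (QuantSeq 3′ FWD, from 100 ng of total RNA; NextSeq 2000, single reads of 100 bases), per the labels' protocols. The authors counted reads per gene with CLC Genomics Workbench 23.0.4 on GRCm39 with Ensembl 107, per the file headers; for strand setting and read filters the sources used here give nothing. The deposited counts were used for every result, and the deposited TPM values only to set shares side by side; 32 columns of other units were not used. Some genes of the lists are not reported here.

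The 9540 genes kept by filterByExpr (minimum count 10, minimum total 15) held 99.6% to 99.7% of the counts of a library. All 16 libraries were fitted in one model with 1 mean per group (edgeR 4.0.16 in R 4.3.3, TMM factors, glmQLFit and glmQLFTest, 12 residual degrees of freedom), with Benjamini-Hochberg adjustment over all genes and calls at an adjusted p under 0.05. The script was tested on simulated data. A level at 0 counts is limited to 3 counts of the total. Likeness used log2(CPM + 1). Alternatives were RLE factors, all genes with a count, only genes at 5 CPM or more in 4 libraries, a replicate block, only the groups compared, DESeq2 1.42.0, limma 3.58.1 on log2(CPM + 1) and 16 leave-one-out fits; merging replicates within sampling noise was chosen after seeing the data.

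The members and lists were chosen with earlier results of these data known. Named were all members and relatives, all tested neighbours within 200 kb, the genes of highest r (4) and lowest r (2, if under -0.8) per member, all called genes of the signalling and partner lists, and up to 4 effector genes per direction and comparison with the smallest p. Further effector genes were named for low counts in 1 line or for lost calls.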

Additional observations from a re-analysis of the deposited data

Results flagged for a closer look

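The Ifitm1 level of gp130:IL-6R cells under IL-6 had 1 library that stood apart. Replicate 2 lay at 1429.8 CPM and the other 3 between 1319 and 1333 CPM, so that its gap to the nearest took 0.872 of the range of the group (Dixon's ratio for 4 samples). Chance alone flags about 1 in 20 groups in this way. Every member was screened in every group where it had counts, and no other was flagged, so a single flag is not unusual. The same library had 241 CPM of Ifitm2 and 77.6 CPM of Ifitm6, within the range of the other 3, and 815 CPM of Ifitm3, the highest of its group (790.2 to 803 CPM in the others).

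Ifitm1 was higher in every IL-6 library of gp130:IL-6R cells (log2 0.13) and lower in every IL-6 library of ChimP3V3 cells (log2 -0.30) than in the medium libraries of the same line. That these responses differ was not tested, because the members were chosen with these values known.

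For 15 named genes of the lists and of the neighbourhood the IL-6 response differed between the lines by the test of the difference itself (edgeR adjusted p under 0.05, ChimP3V3 minus gp130:IL-6R, log2). The difference was positive for Ifngr1 (0.86), Irf5 (1.37), Tap2 (0.51), Psmb8 (0.38), Apobec3 (0.58), Vcp (0.17), Setd7 (0.34) and Ric8a (0.47). It was negative for Trim25 (-0.81), Gbp7 (-1.28), Tor3a (-1.14), Irgm1 (-1.39), Ifi27 (-0.37), Rnh1 (-0.57) and Rassf7 (-1.42). The calls of Irf5, Apobec3, Vcp, Setd7 and Ric8a were lost under some of the alternatives given beside them above, and that of Ifi27 (edgeR adjusted p = 0.0101) without gp130:IL-6R IL-6 replicate 2 (0.0667).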

How the results depend on the processing

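No log2 value of a member in a comparison changed sign under an alternative, apart from that of Ifitm2 under IL-6 in gp130:IL-6R cells, which stayed between -0.05 and 0.03. With 1 library left out, the IL-6 response of Ifitm1 in ChimP3V3 cells ranged from -0.37 to -0.30 (-0.37 without ChimP3V3 IL-6 replicate 3), and the difference of the responses from -0.51 to -0.41 for Ifitm1, -0.45 to -0.27 for Ifitm2 and -0.63 to -0.43 for Ifitm3. With DESeq2, 734 genes in all had a more positive response in ChimP3V3 cells in place of 1182. The cause of this and of the other shifts below was not tested.

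Counts of called list genes moved where they were small. In gp130:IL-6R cells under IL-6, 1 partner gene rose with DESeq2 and with limma in place of 2. In ChimP3V3 cells under IL-6, DESeq2 called 4 signalling genes higher (7 in the main analysis) and 3 effector genes lower (5), limma called 5 effector genes (3) and 2 partner genes (1) higher, and 2 partner genes fell in place of 1 with RLE factors, no filter, the stricter filter and only the groups compared. For the difference of responses, DESeq2 called 1 signalling gene, 0 partner genes and 0 neighbours higher (2, 2 and 1), and the partner genes called higher were 0 without a filter and with the stricter filter and 1 with RLE factors and with merged replicates.

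With 1 library left out, the counts of called genes ranged as follows. In gp130:IL-6R cells under IL-6 they were 1 to 3 partner genes higher and 1 to 2 lower, and 11 to 15 effector genes higher and 2 to 4 lower. In ChimP3V3 cells under IL-6 they were 3 to 6 effector genes higher and 3 to 6 lower, 0 to 1 partner genes higher and 1 to 3 lower, and 1 to 2 neighbours higher. For the difference they were 0 to 2 partner genes higher and 0 to 1 lower, 0 to 1 neighbours higher and 0 to 2 signalling genes lower. Between the lines under IL-6 they were 3 to 5 partner genes lower.

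The labels give the groups the same replicate numbers, but not every pair of one number deviated together (correlations of -0.152 to 0.255 over 4 comparisons), and not every library correlated best with its own number. Between the lines in medium, replicates 2, 3 and 4 did so (0.172, 0.255 and 0.129) and replicate 1 less (0.0646), as a hint from the data and not from the design. The replicate block moved 2 of these counts by more than 1.5 times, to 5 effector genes and 2 neighbours higher in ChimP3V3 cells under IL-6. The difference of responses uses all groups, so it was not fitted on only the groups compared. Merging replicates within sampling noise left 3, 3, 2 and 3 replicates in the 4 groups, and the members' log2 values moved by less than 0.02. Depth limits the low genes: 3 counts correspond to 1.80 to 2.41 CPM in 1 library.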
